A study of Mus musculus with 8 samples.

Results

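Kinesins are the motor proteins that hydrolyse ATP to move along, or to shorten, microtubules. Their mRNAs were followed in ASZ, a mouse basal cell carcinoma cell line, with and without the agent the labels call CBD. Members were all genes whose symbol is Kif followed by a number, with or without further letters or digits, together with Kifc1, Kifc2, Kifc3 and Kifap3. This gave 41 genes listed in both deposited tables, which have 23744 and 23746 rows, and 32 of them reached 1 FPKM (fragments per kilobase of transcript, scaled to a library's mapped fragments) in at least 1 of the 4 groups. By textbook role, 12 of the 32 were placed as mitotic, 11 as transport and 6 as ciliary kinesins, and 3 fitted none of these classes.

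The 4 groups of 2 libraries each were wild-type ASZ cells given DMSO, the solvent control, wild-type ASZ cells given CBD, and RasV12-expressing ASZ cells given DMSO or CBD. RasV12 denotes Ras locked in its active state. What CBD stands for, its dose and the time of treatment are not in the labels, nor are the Ras gene, its promoter or whether the RasV12-expressing cells are 1 clone. All 4 groups share the ASZ line as their parent. The comparison asked in each line which kinesin mRNAs differed between CBD and DMSO.

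In dividing cells, mitotic kinesins build the bipolar spindle, move chromosomes and complete cytokinesis, and most of their genes are transcribed mainly in late G2 and mitosis. Transport kinesins carry vesicles, endosomes and mitochondria throughout the cell cycle. Ciliary kinesins drive intraflagellar transport, which assembles the primary cilium, or act at the cilium's tip or base. The primary cilium is the organelle in which vertebrate cells process Hedgehog signals, and basal cell carcinomas depend on Hedgehog signalling.

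The files hold 1 FPKM value a group, made by the authors from 2 libraries, so no spread between libraries can be given. A change was called where the authors' deposited p-value, adjusted by the Benjamini-Hochberg method over all genes used in the table, was under 0.05. Standard errors (SE) are those that the log2 ratio and the deposited p-value imply, and they are upper limits where the p-value was the lowest in its table. If the smallest steps in the FPKM values are 1 fragment in 1 of 2 equally deep libraries, depth was between 10800000 and 17600000 fragments a library, and the median SE of genes with a p-value over 0.01 was 0.28 in ASZ and 0.33 in RasV12 cells. Between the groups of a line the summed FPKM went from 371297 to 531898 in ASZ and from 437048 to 658792 in RasV12 cells. The median log2 ratio of CBD to DMSO over all genes was −0.44 in ASZ and −0.01 in RasV12 cells. Ratios fell with transcript length: the median of the shortest and of the longest of 10 length bins was 0.65 and −1.57 in ASZ, and 0.58 and −0.65 in RasV12 cells. Basal keratinocyte markers summed to between 12732 and 16212 FPKM in the 4 groups, mostly from Krt5, Krt14 and Krt17. Single markers went in different directions with CBD: in ASZ cells Krt17 went from 2744 to 5701 FPKM, Krt15 from 146 to 33.7 FPKM and Trp63 from 64.6 to 20.7 FPKM, and in RasV12 cells these 3 went from 5902 to 4611, from 274 to 130.2 and from 91.95 to 53.2 FPKM. The part of such shifts in the kinesin results was not tested. Leukocyte (Ptprc), simple epithelium (Krt8, Krt18) and fibroblast markers summed to under 1 FPKM in every group, and the endothelial Cdh5 and the neuronal Rbfox3 were at or near 0, while Pecam1 (9.44 to 23.3 FPKM), Tubb3 (10.3 to 38.0 FPKM) and Map2 (7.47 to 18.2 FPKM) were present.

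Most kinesin mRNAs fell after CBD in ASZ cells and 15 of 32 fell in RasV12 cells, and the mitotic class had the lowest median in both lines. Of the 31 kinesins used in ASZ cells, 26 fell and 0 rose, where 42.4% of all genes fell and 14.0% rose. Unadjusted p-values under 0.05 marked 27 lower and 0 higher kinesins in ASZ cells. Of the 32 used in RasV12 cells, 15 fell and 1 rose, where 24.4% of all genes fell and 18.7% rose. The 15 that fell in RasV12 cells were among the 26 that fell in ASZ cells. With log2 ratios centred on the median of their length bin, 14 kinesins passed as lower and 3 as higher in ASZ cells. The same centring gave 11 lower and 1 higher in RasV12 cells. With groups scaled to equal FPKM sums, 31 passed as lower and 0 as higher in ASZ cells, and 25 and 0 in RasV12 cells. Kinesins at least 2-fold lower in FPKM numbered 23 in ASZ and 13 in RasV12 cells. Of the 31 kinesins, 9 reached 1 FPKM in ASZ cells only under DMSO, so for these the filter itself selected for a fall. They were the mitotic Kif4, Kif14, Kif18a and Kif20b, the transport Kif13b and Kif21b, the ciliary Kif7 and Kif24, and Kif26a. In RasV12 cells this held for 1, Kif24.

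**Figure D1:**
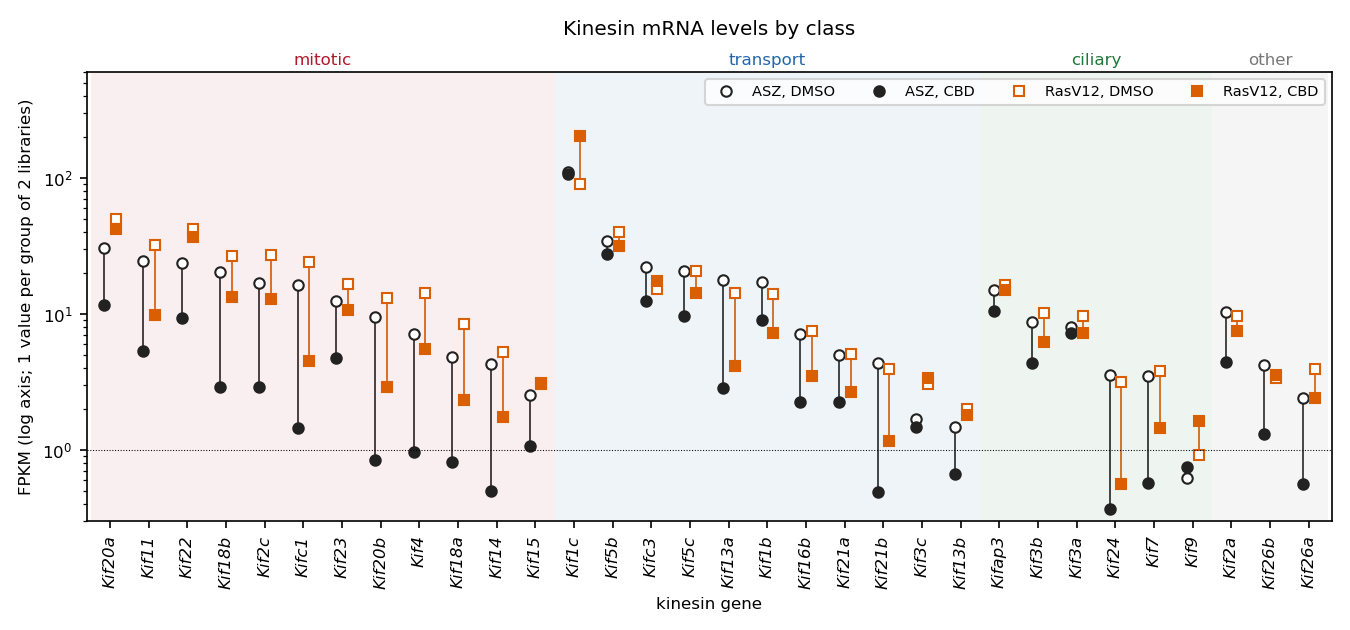
FPKM (log axis) of the 32 kinesin genes under DMSO and CBD in ASZ and RasV12 cells, ordered by class, with 1 point for each group's deposited value. The mitotic genes lay below their DMSO points in ASZ cells in 12 of 12 cases, while Kif1c stayed near 110.2 FPKM in ASZ cells and stood at 202 FPKM in RasV12 cells given CBD.

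The mitotic kinesins went from a summed 173 to 42.4 FPKM in ASZ cells, to 24.5% of the DMSO level, and from 262 to 146 FPKM in RasV12 cells, to 55.5%. In ASZ cells 12 of 12 fell and in RasV12 cells 8 of 12, where 42.4% and 24.4% of all genes fell. Of the 12, 4 (Kif4, Kif14, Kif18a and Kif20b) reached 1 FPKM in ASZ cells only under DMSO, so for these the filter selected for a fall. Median changes on the log2(FPKM + 1) scale were −1.90 and −1.10 against −0.37 and −0.01 for all genes. The pseudocount of 1 understates the change of low genes. Relative to genes of like transcript length, 12 of 12 lay below their bin's median log2 ratio in ASZ cells and 11 of 12 in RasV12 cells. Median distances were −1.72 and −0.98 on the log2 scale. The classes were chosen with earlier results of these data known. Kif2a, which also acts at spindle poles, was placed outside the mitotic class, and it lay 0.13 above its bin's median in ASZ and 0.21 above in RasV12 cells. Centred on the length bin, 10 of the 12 mitotic kinesins passed as lower in ASZ cells (all but Kif15 and Kif20a) and 8 of 12 in RasV12 cells. Fewer dividing cells and less RNA per cell cannot be told apart in bulk samples.

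Among the motors that shape the spindle, Kif11, the motor that pushes spindle poles apart, went from 24.2 to 5.35 FPKM in ASZ cells and from 32.2 to 9.82 FPKM in RasV12 cells. Its log2 ratio was −2.18 in ASZ (SE at most 0.27) and −1.71 in RasV12 cells (SE at most 0.42). Kifc1, a minus-end-directed motor that gathers microtubules at spindle poles, fell furthest of the mitotic genes in RasV12 cells. It measured 16.2 and 1.45 FPKM under DMSO and CBD in ASZ cells and 24.1 and 4.52 FPKM in RasV12 cells, log2 ratios of −3.48 and −2.42. Reads of Kifc1 may be split with Kifc5b, its near-identical copy, which measured 4.71 and 0.923 FPKM in ASZ cells and 5.43 and 2.50 FPKM in RasV12 cells. Kif15, which can hold spindle poles apart beside Kif11, was low. It went from 2.51 to 1.06 FPKM in ASZ cells (log2 ratio −1.24, SE 0.34) and measured 3.06 and 3.12 FPKM in RasV12 cells (log2 ratio 0.03), where it did not pass. From the authors' deposited p-values, the adjusted p of Kif15 was 0.00064 in ASZ and 0.96 in RasV12 cells, and that of Kif11 and Kifc1 in RasV12 cells was 0.00032, the lowest that table allows.

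Kif2c removes tubulin from microtubule ends at centromeres. It fell from 16.9 to 2.88 FPKM in ASZ cells and from 26.9 to 12.9 FPKM in RasV12 cells (log2 ratio −1.06, SE 0.28). The related motors Kif18a, which damps chromosome oscillation, and Kif18b, which limits astral microtubules, fell in both lines. Kif18a went from 4.82 to 0.808 FPKM in ASZ cells and from 8.44 to 2.33 FPKM in RasV12 cells. Kif18b went from 20.5 to 2.87 FPKM in ASZ cells and from 26.5 to 13.2 FPKM in RasV12 cells (log2 ratio −1.0, SE 0.30). Kif18b stood above Kif18a in every group, by 4.24 and 3.55 times in ASZ cells and by 3.14 and 5.67 times in RasV12 cells. Kif4 and Kif22 are chromokinesins, which bind chromosome arms. Kif4, which also acts at the central spindle, fell from 7.16 to 0.959 FPKM in ASZ cells and from 14.3 to 5.53 FPKM in RasV12 cells. Kif22 fell from 23.8 to 9.25 FPKM in ASZ cells (log2 ratio −1.36, SE 0.27) and measured 42.0 and 36.8 FPKM in RasV12 cells (log2 ratio −0.19). From the authors' deposited p-values, the adjusted p in RasV12 cells was 0.00084 for Kif2c, 0.0031 for Kif18b and 0.60 for Kif22.

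Of the motors of cytokinesis, Kif14, which works with citron kinase, fell from 4.28 to 0.496 FPKM in ASZ cells and from 5.23 to 1.74 FPKM in RasV12 cells. Kif20b, which acts at abscission, fell from 9.40 to 0.845 FPKM in ASZ cells (log2 ratio −3.48) and from 13.1 to 2.91 FPKM in RasV12 cells (log2 ratio −2.17). Both fell in both lines. Kif23, the motor subunit of centralspindlin, fell from 12.3 to 4.75 FPKM in ASZ cells (log2 ratio −1.38, SE 0.27) and measured 16.7 and 10.7 FPKM in RasV12 cells (log2 ratio −0.64). Kif20a, which brings the chromosomal passenger complex to the central spindle, fell from 30.6 to 11.7 FPKM in ASZ cells (log2 ratio −1.39, SE 0.33) and measured 50.1 and 42.1 FPKM in RasV12 cells (log2 ratio −0.25). Adjusted from the authors' deposited table, p in RasV12 cells was 0.067 for Kif23 and 0.56 for Kif20a. The 4 mitotic genes with no call in RasV12 cells were thus Kif15, Kif20a, Kif22 and Kif23, and these 4 also had the smallest mitotic falls in ASZ cells. The level of Kif20a over that of Kif11 went from 1.26 to 2.18 in ASZ and from 1.56 to 4.29 in RasV12 cells, a ratio of FPKM values with no test.

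**Figure D2:**
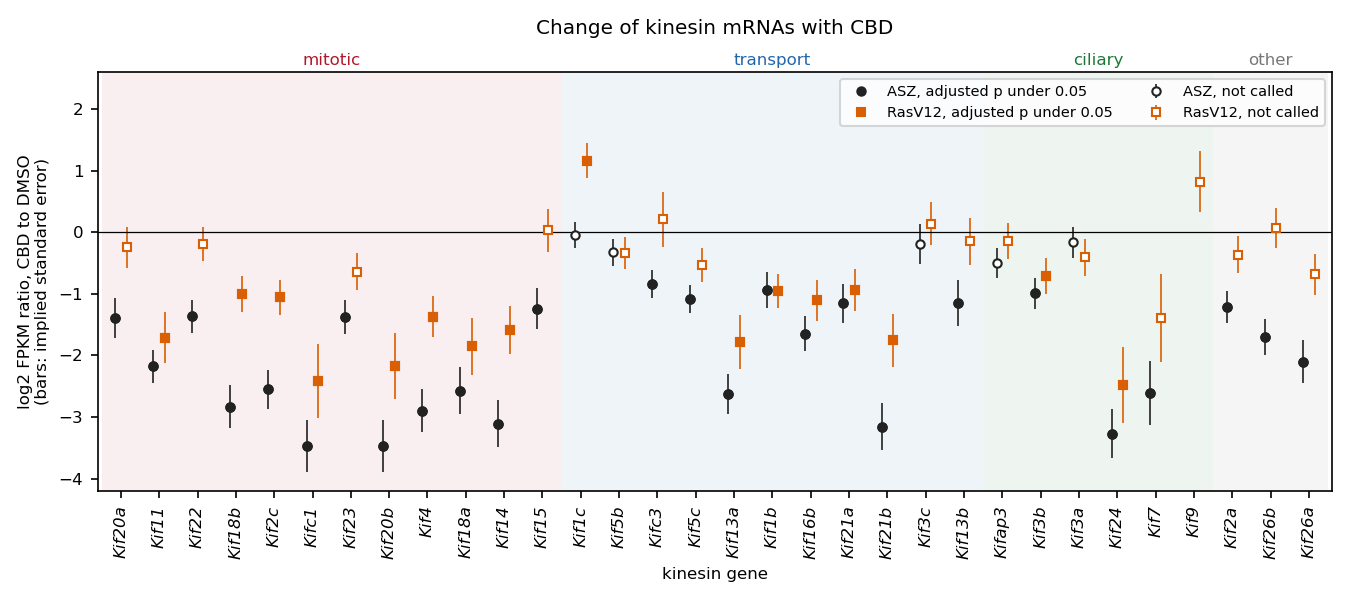
Log2 ratio of FPKM, CBD to DMSO, of the kinesin genes in ASZ and RasV12 cells, with filled points for called changes and bars for the implied SE. All 12 mitotic genes lay between −3.48 and −1.24 in ASZ cells, and in RasV12 cells they lay between −2.42 and 0.03.

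Many genes transcribed late in the cell cycle carry a cell cycle genes homology region (CHR), here searched as TTTGAA, and a CCAAT box, here searched by its 5 letters. Promoters were taken from RefSeq on GRCm38.p6, from 250 bases before to 50 after each gene's start, and both strands were searched. The table gave one for 11 of the 12 mitotic, 7 of the 11 transport, 6 of the 6 ciliary and 3 of the 3 other genes. TTTGAA stood in 10 of 11 mitotic promoters (all but Kif18a), in 0 of 7 transport, in 0 of 6 ciliary and in 1 of 3 other promoters (Kif26b), and in 17.9% of 32851 promoters of all genes. In 8 of the mitotic promoters a CHR match began at position −20 or later, counted from the gene's start. CCAAT stood in 7 of 11 mitotic, 1 of 7 transport (Kif1b), 4 of 6 ciliary and 1 of 3 other promoters, and in 37.4% of all promoters. Both motifs stood in 7 mitotic promoters, and no CHR match overlapped a CCAAT match in the kinesin promoters. A match is a description of these letters and does not show that a factor binds there.

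The following 100 bases run 5′ to 3′ along the gene, from 91 before the start to 9 from the start on, with both motifs, read on either strand, in capitals. They are shown to set the 2 motifs of mitotic kinesins beside a ciliary promoter with CCAAT alone and a transport promoter with neither. They are Kif11 at chr19:37376291-37376390 (plus strand), Kif15 at chr9:122950990-122951089 (plus strand), Kif18b at chr11:102925116-102925215 (minus strand), Kif23 at chr9:61946791-61946890 (minus strand), Kifc1 at chr17:33890625-33890724 (minus strand), Kif3b at chr2:153291325-153291424 (plus strand) and Kif5c at chr2:49619195-49619294 (plus strand).
Kif11: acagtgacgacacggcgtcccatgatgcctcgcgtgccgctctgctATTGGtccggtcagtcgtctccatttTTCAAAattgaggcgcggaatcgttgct
Kif15: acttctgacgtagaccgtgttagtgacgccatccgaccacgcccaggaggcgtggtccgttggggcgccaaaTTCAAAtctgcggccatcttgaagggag
Kif18b: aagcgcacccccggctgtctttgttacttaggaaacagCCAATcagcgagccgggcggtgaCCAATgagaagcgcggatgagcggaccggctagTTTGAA
Kif23: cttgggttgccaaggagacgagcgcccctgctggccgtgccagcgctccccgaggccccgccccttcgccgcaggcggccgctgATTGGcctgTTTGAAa
Kifc1: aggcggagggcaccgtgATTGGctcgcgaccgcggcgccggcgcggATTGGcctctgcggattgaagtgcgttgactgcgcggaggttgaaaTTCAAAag
Kif3b: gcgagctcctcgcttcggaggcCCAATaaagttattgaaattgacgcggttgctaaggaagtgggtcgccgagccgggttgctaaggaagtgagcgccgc
Kif5c: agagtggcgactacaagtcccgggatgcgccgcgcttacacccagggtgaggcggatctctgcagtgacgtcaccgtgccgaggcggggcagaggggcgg
The promoters of Kif11, Kif18b, Kif23 and Kifc1 hold both motifs in this stretch, and that of Kif15 holds the CHR alone. In RasV12 cells Kif15, Kif22 and Kif23, which have a match to the CHR letters in the searched window, did not pass the test, and Kif18a, which has none there, fell in both lines.

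The transport kinesins carry cargo along microtubules. Their summed FPKM went from 242 to 175 in ASZ cells, to 72.4% of the DMSO level, and from 216 to 289 FPKM in RasV12 cells, to 134%. Without Kif1c the other 10 summed to 132 and 68.3 FPKM in ASZ and to 125 and 86.9 FPKM in RasV12 cells. In ASZ cells 8 of 11 fell and in RasV12 cells 5 of 11, with 0 and 1 risen. Of all genes 42.4% and 24.4% fell in the 2 lines and 14.0% and 18.7% rose. Kif13b and Kif21b reached 1 FPKM in ASZ cells only under DMSO, so for these the filter selected for a fall. The median changes of the class on the log2(FPKM + 1) scale were −0.87 and −0.51. Transport kinesins have long transcripts, with a median of 6791 nt. In the longest length bin 78.5% of all genes fell in ASZ and 46.1% in RasV12 cells. Against their length bins the transport genes stood a median of 0.43 above in ASZ and 0.12 above in RasV12 cells on the log2 scale, with 4 and 5 of 11 below. Centred on the length bin, 2 of the 11 passed as lower and 3 as higher (Kif1c, Kif3c and Kif5b) in ASZ cells. The changes of Kif1b, Kif5c, Kif13b and Kif21a there lay above 0. With that centring Kif1b, Kif16b and Kif21a did not pass in RasV12 cells. After the median of all genes was subtracted instead, Kif1b, Kif13b and Kifc3 did not pass in ASZ cells.

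Kif1c, a motor of vesicles and of the Golgi, had the highest level of all kinesins in every group. It measured 110.2 and 107 FPKM in ASZ cells (log2 ratio −0.05, SE 0.22) and 90.6 and 202 FPKM in RasV12 cells (log2 ratio 1.16, SE at most 0.29). Its adjusted p from the authors' deposited table was 0.87 in ASZ and 0.00032 in RasV12 cells. Its share of all kinesin FPKM went from 23.4% to 43.1% in ASZ cells and from 16.8% to 42.1% in RasV12 cells. In the RasV12 table Kif1c shares its row with the microRNA gene Mir6925, so the 2 cannot be told apart there, and the ASZ table lists it alone. The 42 used rows of the RasV12 table that list a gene with a small RNA had a median log2 ratio of −0.20. Of these 42 rows 12 were higher and 7 lower, where 18.7% of all genes were higher and 24.4% lower. Scaled to equal FPKM sums, the RasV12 change of Kif1c was 0.56 on the log2(FPKM + 1) scale and did not pass. With length centring its ASZ change was 1.51 on that scale and passed as higher. The difference of its log2 ratios between the lines was then 0.28 and did not pass.

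Of the conventional kinesin heavy chains, Kif5b, the widely expressed form, measured 34.4 and 27.4 FPKM in ASZ cells (log2 ratio −0.33) and 39.6 and 31.3 FPKM in RasV12 cells (log2 ratio −0.34). Kif5c, known mostly from neurons, fell from 20.6 to 9.67 FPKM in ASZ cells and measured 20.7 and 14.3 FPKM in RasV12 cells (log2 ratio −0.53). Kif1b, which carries mitochondria and vesicles, fell in both lines, from 17.2 to 8.95 FPKM in ASZ cells (log2 ratio −0.94, SE 0.29) and from 13.9 to 7.17 FPKM in RasV12 cells (log2 ratio −0.95). Adjusted p-values from the authors' deposited table were, for Kif5b, 0.20 in ASZ and 0.30 in RasV12 cells, for Kif5c 0.10 in RasV12 cells, and for Kif1b 0.0030 in ASZ and 0.0029 in RasV12 cells.

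Of the endosomal motors, Kif13a, which carries recycling endosomes, fell from 17.6 to 2.86 FPKM in ASZ cells and from 14.1 to 4.09 FPKM in RasV12 cells, log2 ratios of −2.63 and −1.79. Its relative Kif13b was low, at 1.47 and 0.665 FPKM in ASZ cells (log2 ratio −1.15, SE 0.37) and at 1.99 and 1.79 FPKM in RasV12 cells (log2 ratio −0.15). The Kif13a level over that of Kif13b went from 11.97 to 4.30 in ASZ and from 7.12 to 2.29 in RasV12 cells. Kif16b, a motor of early endosomes, fell from 7.05 to 2.25 FPKM in ASZ cells and from 7.46 to 3.46 FPKM in RasV12 cells, log2 ratios of −1.65 and −1.11. Kif21b and Kif21a, which restrain microtubule growth, fell in both lines. Kif21b went from 4.35 to 0.487 FPKM in ASZ cells and from 3.90 to 1.15 FPKM in RasV12 cells, log2 ratios of −3.16 and −1.75. Kif21a went from 5.01 to 2.25 FPKM in ASZ cells and from 5.10 to 2.66 FPKM in RasV12 cells, log2 ratios of −1.15 and −0.94. Kifc3, a minus-end-directed motor at cell junctions, fell from 22.2 to 12.4 FPKM in ASZ cells (log2 ratio −0.84, SE 0.23) and measured 15.2 and 17.5 FPKM in RasV12 cells (log2 ratio 0.21). Kif3c, a partner of Kif3a mainly in neurons, measured 1.69 and 1.48 FPKM in ASZ cells and 3.06 and 3.37 FPKM in RasV12 cells and passed in neither. From the authors' deposited p-values, the adjusted p in RasV12 cells was 0.0029 for Kif16b, 0.015 for Kif21a, 0.73 for Kifc3 and 0.77 for both Kif13b and Kif3c, and in ASZ cells it was 0.0044 for Kif13b, 0.00072 for Kifc3 and 0.63 for Kif3c.

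**Figure D3:**
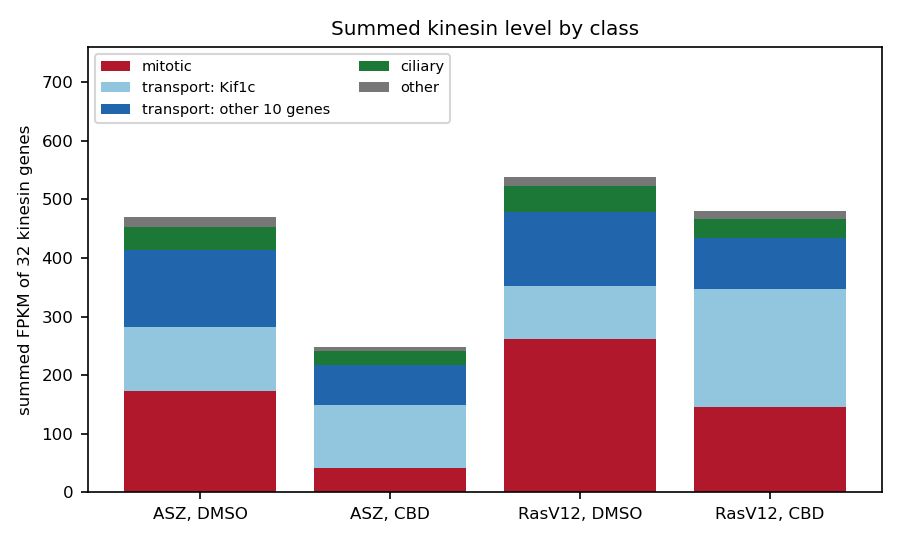
Summed FPKM of the mitotic, transport, ciliary and other kinesins under DMSO and CBD in ASZ and RasV12 cells, as bars from 0, with 1 value per group and no error bars. Transport kinesins went from 51.4% to 70.7% of kinesin FPKM in ASZ and from 40.0% to 60.2% in RasV12 cells. Of this, Kif1c alone went from 23.4% to 43.1% in ASZ and from 16.8% to 42.1% in RasV12 cells, where its row is shared with a microRNA gene. The other 10 transport kinesins summed lower under CBD, at 132 and 68.3 FPKM in ASZ and 125 and 86.9 FPKM in RasV12 cells. Mitotic kinesins went from 36.7% to 17.1% in ASZ and from 48.7% to 30.4% in RasV12 cells.

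Among the ciliary kinesins, 3 of the 5 used in ASZ cells fell (Kif3b, Kif7 and Kif24) and 2 of the 6 used in RasV12 cells (Kif3b and Kif24), with 0 risen in either line at the adjusted threshold or at an unadjusted p under 0.05. Of all genes 42.4% fell in ASZ and 24.4% in RasV12 cells, and with so few members these counts do not set the class apart. Kif7 and Kif24 reached 1 FPKM in ASZ cells only under DMSO, as did Kif24 in RasV12 cells, so for these the filter selected for a fall. Median changes on the log2(FPKM + 1) scale were −0.86 and −0.50. Summed FPKM went from 39.2 to 23.7 in ASZ and from 44.0 to 31.9 in RasV12 cells. Against their length bins 2 of 5 lay below in ASZ and 4 of 6 in RasV12 cells.

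Kif3a, Kif3b and Kifap3 are the subunits of the motor that drives intraflagellar transport outwards, and all 3 had log2 ratios below 0 in both lines, with Kif3b alone past the threshold. Differences between the subunits were not tested, and centred on their length bins all 3 lay above 0 in ASZ cells. After the median of all genes was subtracted, Kif3b did not pass in ASZ cells (−0.48 on the log2(FPKM + 1) scale). With length centring it did not pass in RasV12 cells (−0.12 on that scale). Kif3b fell from 8.69 to 4.36 FPKM in ASZ cells (log2 ratio −0.996, SE 0.26) and from 10.2 to 6.21 FPKM in RasV12 cells (log2 ratio −0.71, SE 0.30). Its partner motor Kif3a measured 8.02 and 7.16 FPKM in ASZ cells (log2 ratio −0.16) and 9.60 and 7.22 FPKM in RasV12 cells (log2 ratio −0.41). The level of Kif3a over that of Kif3b went from 0.924 to 1.64 in ASZ cells and from 0.944 to 1.16 in RasV12 cells, with no test. The 2 transcripts differ in length, at 3161 nt for Kif3a and 5635 nt for Kif3b. Minus the median of their length bins, the log2 ratios of Kif3a and Kif3b were 0.49 and 0.35 in ASZ cells. In RasV12 cells they were −0.29 and −0.14, with Kif3a the lower. Kifap3, the non-motor subunit, measured 14.9 and 10.5 FPKM in ASZ cells (log2 ratio −0.50) and 16.4 and 14.8 FPKM in RasV12 cells (log2 ratio −0.14). From the authors' deposited p-values, the adjusted p in ASZ cells was 0.00030 for Kif3b, 0.60 for Kif3a and 0.070 for Kifap3, and in RasV12 cells it was 0.042, 0.26 and 0.71 in the same order.

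Kif7 organises the cilium tip and regulates the Gli transcription factors of the Hedgehog pathway. It fell from 3.48 to 0.570 FPKM in ASZ cells (log2 ratio −2.61, SE 0.52) and measured 3.79 and 1.44 FPKM in RasV12 cells (log2 ratio −1.39, SE 0.72). Kif24, which restrains the outgrowth of primary cilia, fell from 3.52 to 0.365 FPKM in ASZ cells (log2 ratio −3.27, SE at most 0.40) and from 3.13 to 0.561 FPKM in RasV12 cells (log2 ratio −2.48), the lowest value of the 32 genes in both CBD groups. Kif9, known from motile cilia and the sperm tail, measured 0.619 and 0.741 FPKM in ASZ cells, where it did not pass the filter of 1 FPKM, and 0.914 and 1.62 FPKM in RasV12 cells. For Kif7 the adjusted p from the authors' deposited table was 2.0e-06 in ASZ and 0.10 in RasV12 cells, and for Kif9 in RasV12 cells it was 0.16. Of 3 markers of cells with motile cilia, Foxj1 was at 2.16 and 4.09 FPKM in ASZ and at 1.33 and 5.38 FPKM in RasV12 cells, while Dnah5 and Rsph1 stayed under 1 FPKM in every group.

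Of the 3 kinesins outside these classes, Kif2a, which shortens microtubules at spindle poles and in neurites, fell from 10.3 to 4.45 FPKM in ASZ cells and measured 9.59 and 7.45 FPKM in RasV12 cells (log2 ratio −0.36). Kif26a and Kif26b are atypical kinesins. Kif26a fell from 2.42 to 0.564 FPKM in ASZ cells and measured 3.89 and 2.42 FPKM in RasV12 cells (log2 ratio −0.69). Kif26b fell from 4.24 to 1.30 FPKM in ASZ cells and measured 3.37 and 3.52 FPKM in RasV12 cells (log2 ratio 0.06). The authors' deposited table gave adjusted p-values in RasV12 cells of 0.34 for Kif2a, 0.082 for Kif26a and 0.90 for Kif26b. Centred on the length bin, the ASZ changes of Kif26a and Kif26b did not pass and that of Kif2a lay above 0.

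**Figure D4:**
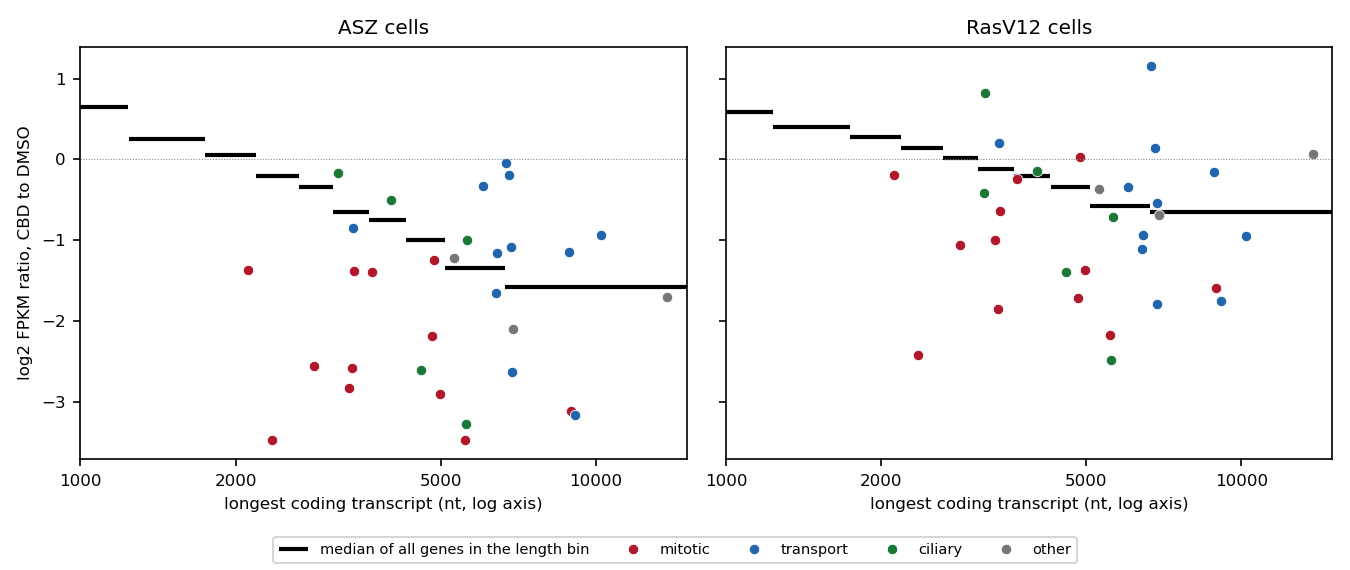
Log2 FPKM ratio, CBD to DMSO, of each kinesin (points) against transcript length (nt, log axis) in ASZ and RasV12 cells, with the median of all genes in each of 10 length bins as black lines. Mitotic kinesins lay below the line in 12 of 12 cases in ASZ and in 11 of 12 in RasV12 cells, while transport kinesins lay on both sides.

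The change in RasV12 cells minus that in ASZ cells was above 0 for 28 of 31 kinesins, where 77.8% of all genes were above 0 and the median of all genes was 0.41 on the log2 scale. It passed a two-sided normal test on the implied SE, adjusted over 10423 genes, for 7 kinesins above 0 and for 0 below, where 8.66% and 0.585% of all genes passed. The 7 were Kif26b (1.77, SE 0.44), Kif18b (1.83, SE at most 0.45), Kif2c (1.49), Kif1c (1.20), Kif4 (1.53), Kif22 (1.17) and Kif26a (1.42). They belong to the mitotic class in 4 of its 12 cases, to transport in 1 of 11 and to the other class in 2 of 3, and to the ciliary class in 0 of 5. Of the 31 kinesins, 9 reached 1 FPKM in ASZ cells only under DMSO, among them Kif4 and Kif26a of these 7. For these 9 the filter selected for a fall in ASZ cells, so their differences are not free of it. Where a p-value was the lowest in its table the SE is an upper limit, so the test could miss a difference. At the lowest RasV12 p-value, Kif1c and Kif4 passed. Kif11, Kif13a, Kif14, Kif18a, Kif20b, Kif21b, Kif24 and Kifc1, also at it, did not, so the class counts depend in part on this limit. Through the SE that the authors' p-values imply, the adjusted p ran from 0.0023 for Kif26b to 0.039 for Kif26a. After the median of all genes was subtracted from each line's ratios, 0 kinesins passed, and 7 had an unadjusted p under 0.05, all above 0; without that step 13 did, with 0 below. Kif1b and Kif5b differed by −0.01 and −0.01 between the lines, with 95% intervals from −0.80 to 0.78 and from −0.68 to 0.67.

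Under DMSO the mitotic kinesins stood higher in RasV12 than in ASZ cells in 12 of 12 cases, by a median of 0.34 on the log2(FPKM + 1) scale after the median of 10455 genes was subtracted. The 2 tables were normalized separately, so no test was made. Kif4 measured 7.16 FPKM in ASZ and 14.3 FPKM in RasV12 cells given DMSO, a difference of 0.75. Transport kinesins were higher in 3 of 11 cases, with a median of −0.14, and Kifc3 at 22.2 and 15.2 FPKM lay furthest down, at −0.67. Ciliary kinesins were higher in 3 of 6 cases. These counts depend on the median subtracted: in the FPKM as listed, 12 of 12 mitotic, 6 of 11 transport and 5 of 6 ciliary kinesins were higher in RasV12 cells.

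Most genes that work with the mitotic kinesins fell in ASZ cells. Of 20 such partners 16 fell and 0 rose in ASZ cells (0 also at an unadjusted p under 0.05), where 42.4% of all genes fell and 14.0% rose. In RasV12 cells 8 fell and 2 rose, where 24.4% fell and 18.7% rose, with median changes on the log2(FPKM + 1) scale in the 2 lines of −1.23 and −0.41. Of the partners, Cit reached 1 FPKM only under DMSO in ASZ cells. Centred on their length bins, 10 passed as lower and 2 as higher in ASZ cells. Ect2, the exchange factor that starts cytokinesis, fell from 17.8 to 2.96 FPKM in ASZ and from 30.2 to 6.98 FPKM in RasV12 cells. Incenp, the scaffold of the chromosomal passenger complex, fell from 35.1 to 8.04 FPKM in ASZ and from 53.1 to 27.0 FPKM in RasV12 cells. The mitotic kinase gene Plk1 fell from 51.0 to 12.6 FPKM in ASZ and from 80.2 to 34.3 FPKM in RasV12 cells. Cenpe, a centromere kinesin whose symbol the rule does not match, fell from 8.14 to 2.03 FPKM and from 11.4 to 3.58 FPKM, and Spc25 of the outer kinetochore from 19.5 to 7.64 FPKM and from 22.1 to 8.36 FPKM. The checkpoint gene Kntc1 fell from 10.6 to 6.60 FPKM in ASZ cells and rose from 11.7 to 20.3 FPKM in RasV12 cells. Cdca8, a passenger complex subunit, rose in RasV12 cells from 52.9 to 84.0 FPKM and measured 42.1 and 43.8 FPKM in ASZ cells, with no call.

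Of 19 light chains and adaptors of transport kinesins, 17 were used. In ASZ cells 7 fell (41.2%) and 1 rose, and in RasV12 cells 5 fell (29.4%) and 2 rose, with medians of −0.43 and −0.22. Of all genes 42.4% and 24.4% fell, so the adaptors fell at about the share of all genes. Trak2 reached 1 FPKM only under DMSO in both lines. Trak2, the mitochondrial adaptor, fell from 8.60 to 0.828 FPKM in ASZ and from 7.08 to 0.899 FPKM in RasV12 cells. Plekhm2, the lysosomal adaptor, fell from 8.12 to 1.92 FPKM and from 10.5 to 2.55 FPKM, and Hook3 from 6.01 to 1.77 FPKM and from 6.53 to 1.60 FPKM. The light chain Klc3 rose in ASZ cells from 18.9 to 28.3 FPKM and measured 30.9 and 38.9 FPKM in RasV12 cells. The scaffolds Mapk8ip3 and Mapk8ip1 rose in RasV12 cells, from 4.35 to 11.0 FPKM and from 6.02 to 11.5 FPKM. In ASZ cells they measured 3.98 and 5.48 FPKM and 6.17 and 8.52 FPKM, with no call.

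Of 15 partners of the ciliary kinesins, 8 fell (53.3%) and 1 rose in ASZ cells and 4 fell (26.7%) and 2 rose in RasV12 cells, with medians of −0.64 and −0.46. Of all genes 42.4% and 24.4% fell, and the RasV12 share is near that. Of the 8 that fell in ASZ cells, 5 (Gli2, Ccp110, Ttbk2, Stk36 and Traf3ip1) reached 1 FPKM only under DMSO, as did Ttbk2 in RasV12 cells, so for these the filter selected for a fall. The Hedgehog regulators that Kif7 acts on were among those that fell. Sufu, which holds back the Gli factors, fell from 11.1 to 1.503 FPKM in ASZ and from 10.6 to 2.42 FPKM in RasV12 cells. Gli2 fell from 2.01 to 0.208 FPKM in ASZ and from 5.19 to 1.47 FPKM in RasV12 cells, and Gli3 fell from 11.3 to 1.90 FPKM in ASZ and from 10.2 to 5.02 FPKM in RasV12 cells. The kinase gene Ttbk2, needed to start cilium assembly, fell from 2.38 to 0.513 FPKM in ASZ and from 2.77 to 0.857 FPKM in RasV12 cells. Of the intraflagellar transport complex, Ift20 rose from 29.0 to 49.5 FPKM in ASZ cells and measured 37.1 and 46.8 FPKM in RasV12 cells. Ift57 rose from 9.54 to 16.4 FPKM in RasV12 cells and measured 7.74 and 9.34 FPKM in ASZ cells. Bbs4, of the complex that carries membrane proteins to cilia, rose from 1.87 to 4.15 FPKM in RasV12 cells and measured 1.15 and 1.95 FPKM in ASZ cells.

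The 9 listed kinesins under 1 FPKM in all 4 groups were Kif12, Kif17, Kif19a, Kif1a, Kif27, Kif2b, Kif5a, Kif6 and Kifc2. Just outside the threshold, Kifc2 reached 0.878 FPKM and Kif6 0.575 FPKM, and just inside it Kif9 reached 1.62 FPKM and Kif13b 1.99 FPKM.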

How the data were processed

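Per the labels' protocols, RNA was taken from adherent cells with an RNeasy kit and libraries were made with an Illumina TruSeq RNA kit. The submitters' processing notes name TopHat, Cufflinks and the build mm9, with versions and settings not given in the sources used here. Each line has 1 table from the authors, in which the authors deposited 1 FPKM value a group of 2 libraries and 1 unadjusted p-value for each gene. Labels call the 2 libraries replicates but not whether they came from separate cultures, so the p-values may measure technical spread.

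Genes were used where the p-value was below 1 and at least 1 group reached 1 FPKM, which left 10703 genes in ASZ and 11075 in RasV12 cells. Older symbols were replaced, and of a symbol on several rows the highest row was used where the others were under 10% of it. Deposited p-values were adjusted by the Benjamini-Hochberg method over these genes. The SE is the size of the log2 ratio divided by the normal quantile of its p-value. The lowest p-value was 5e-05 in the RasV12 table, for 1707 genes, and 585 genes were at the lowest in the ASZ table (554 of them listed at 0). Above 0 the lowest ASZ p-value was 2.2e-16. Whether the same test and version made both tables is not given, so p-values, calls and SEs may not compare between the lines. Transcript length is that of the longest protein-coding GENCODE M21 transcript. Python 3.11.15, pandas 2.3.3 and scipy 1.17.1 were used. All members with 1 FPKM or more in any group are named, and of each partner list up to 3 called genes a direction and line with the largest changes. The members, classes, gene lists and motifs were chosen with earlier results of these data known. Alternatives were other scalings, length centring, another pseudocount, other filters, other symbol handling and another threshold.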

Additional observations from a re-analysis of the deposited data

Results flagged for a closer look

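The CBD response differed between the lines in the direct test for 7 kinesins. The log2 ratio in RasV12 minus that in ASZ cells was 1.77 for Kif26b, 1.83 for Kif18b, 1.49 for Kif2c, 1.20 for Kif1c, 1.53 for Kif4, 1.17 for Kif22 and 1.42 for Kif26a. Kif1c rose in RasV12 cells from a row shared with a microRNA gene and had a log2 ratio of −0.05 in ASZ cells. The other 6 had the lower log2 ratio in ASZ cells, where all 6 fell. Of these 6, Kif4 and Kif26a reached 1 FPKM in ASZ cells only under DMSO, so for them the filter selected for that fall. None of the 7 passed after median centring or length centring.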

How the results depend on the processing

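No paired analysis was possible because the tables hold 1 value a group and none for a library, and for the same reason no library could be left out. The counts and medians of the kinesin classes moved mostly with the scale of the groups and with transcript length. The log2 ratios shift by −0.52 in ASZ and −0.59 in RasV12 cells with equal FPKM sums, by −0.12 and −0.41 with equal fragment mass, and by 0.44 and 0.01 with median centring. Values below are counts of genes called, medians or single changes on the log2(FPKM + 1) scale.

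With equal FPKM sums, the medians were −2.26, −1.28 and −1.30 for mitotic, transport and ciliary kinesins in ASZ cells and −1.59, −1.06 and −1.02 in RasV12 cells. Ciliary kinesins called lower became 5 in each line, and all kinesins in RasV12 cells 25 lower and 0 higher (transport 0 higher). Transport adaptors became 12 lower and 0 higher in ASZ and 8 and 0 in RasV12 cells. Ciliary partners became 0 higher in ASZ and 8 lower and 0 higher in RasV12 cells, and mitotic partners 14 lower and 0 higher in RasV12 cells. Signs turned in RasV12 cells for Kif15 (−0.43), Kif26b (−0.41), Kif3c (−0.35) and Kifc3 (−0.36).

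With equal fragment mass, the transport median in RasV12 cells was −0.89, with 4 ciliary kinesins lower. There, mitotic partners had 0 higher, transport adaptors 1 higher and ciliary partners 7 lower and 0 higher, while transport adaptors in ASZ cells had 0 higher. The difference between lines passed for 2 kinesins. Signs turned in RasV12 cells for Kif15 (−0.29), Kif26b (−0.27), Kif3c (−0.21) and Kifc3 (−0.19), and for the difference between lines of Kif21a (−0.074) and Kif3b (−0.0025).

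With median centring, ASZ cells had transport and ciliary medians of −0.46 and −0.48, 5 transport kinesins lower, 3 transport adaptors higher, and 5 ciliary partners lower and 4 higher. The difference between lines passed for 0 kinesins. Signs turned in ASZ cells for Kif1c (0.39), Kif3a (0.24), Kif3c (0.15) and Kif5b (0.11), and for the difference of Kif21a (−0.22), Kif3b (−0.15), Kif3c (−0.10) and Kifap3 (−0.078).

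With length centring, ASZ cells had 14 kinesins lower and 3 higher, transport 2 lower and 3 higher, and medians of −1.29, 0.21 and 0.24 for mitotic, transport and ciliary kinesins. Mitotic partners had 10 lower and 2 higher there, transport adaptors 3 and 5, and ciliary partners 4 and 2. RasV12 cells had 2 transport and 1 ciliary kinesin lower, a transport median of 0.11, 1 mitotic partner higher and 0 ciliary partners higher. The difference between lines passed for 0 kinesins. Signs turned in ASZ cells for Kif13b (0.21), Kif1b (0.59), Kif1c (1.51), Kif21a (0.14), Kif2a (0.11), Kif3a (0.44), Kif3b (0.30), Kif3c (0.84), Kif5b (0.98), Kif5c (0.46) and Kifap3 (0.24), and in RasV12 cells for Kif13b (0.33), Kif2a (0.19), Kif5b (0.23), Kif5c (0.11) and Kifap3 (0.055). The difference turned for Kif11 (−0.18), Kif13a (−0.084), Kif16b (−0.23), Kif21a (−0.55), Kif3b (−0.48), Kif3c (−0.59), Kif5c (−0.37) and Kifap3 (−0.20).

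At a minimum of 5 FPKM, which tests fewer genes, ASZ cells had 17 kinesins lower, 1 ciliary kinesin lower with a ciliary median of −0.46, and 2 ciliary partners lower, and RasV12 cells had 1 ciliary kinesin lower and 1 ciliary partner higher. A pseudocount of 0.1 gave a mitotic median of −2.48 in ASZ cells. At an unadjusted p under 0.001, ASZ cells had 0 transport adaptors higher and 5 ciliary partners lower and 0 higher. RasV12 cells had 1 ciliary kinesin lower, 0 mitotic partners higher, 3 transport adaptors lower and 1 higher, and 0 ciliary partners higher, and the difference passed for 4 kinesins. Leaving out rows that list 2 names, an alternative chosen after seeing the data, removed Kif1c from RasV12 cells, so 0 kinesins and 0 transport kinesins were higher. Without an FPKM filter, with repeated symbols left out or with symbols as listed, none of the 38 summary results and 94 single-gene results changed direction or call, and no count moved by over 1.5 times. Where no cause is given here, the cause was not tested.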
